A study of Homo sapiens with 18 samples.

Results

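The genes described here encode the enzymes that build the 5′ cap of messenger RNA: CMTR1, CMTR2, RNGTT and RNMT. They were chosen by name with earlier results of these data known, CMTR1 because its level was low with 1 of the EYA2 hairpins, which made it a candidate off-target of that hairpin. All 4 were found among the 25369 gene rows of the count table, and all 4 passed the filter on low counts that left 14850 genes to test. The libraries came from D458 and D425, established human cell lines of group 3 medulloblastoma, a childhood tumour of the cerebellum. D458 cells carried hairpin 8 against EYA2, hairpin 7 against EYA2 or a non-targeting control hairpin, and D425 cells carried hairpin 8 against EYA2, hairpin 6 against EYA2 or the non-targeting control, with 3 replicate libraries in each of the 6 groups. Every group, controls included, had therefore received a hairpin vector with zsGreen, was selected in puromycin at 1 µg/mL for 48 hours, sorted for the brightest 10% of zsGreen cells and left for 24 hours before poly(A) RNA was taken. Hairpin 8 was the only one used in both lines, so hairpins 6 and 7 were each compared with it within 1 line.

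The cap is added to the first nucleotide of a transcript soon after RNA polymerase II starts. RNGTT removes a phosphate from the 5′ end and attaches the guanosine, RNMT methylates that guanosine with the help of its small activating subunit RAMAC, and CMTR1 and CMTR2 methylate the ribose of the first and of the second transcribed nucleotide. The finished cap is bound by the nuclear cap-binding complex and then by the translation factor eIF4E, it protects the RNA from 5′ exonucleases, and ribose methylation marks it as self for the sensors RIG-I and IFIT1. EYA2, the target of the hairpins, is a transcriptional co-activator with phosphatase activity.

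The libraries held between 21260369 and 31552051 counts assigned to genes. Of 9 group 3 marker genes, 8 averaged at least 1 CPM (counts scaled to the library total) and NPR3 did not, while 0 of 4 oligodendrocyte markers and 1 of 4 astrocyte, microglial and endothelial markers each reached that level. The sum of the fibroblast markers differed between hairpin and control libraries, and 3 of 4 (COL1A1, DCN and LUM) reached 1 CPM. In D458 the sum of all 4 was 20.1 to 33 CPM with hairpin 8, 20.2 to 32.2 CPM with hairpin 7 and 2.59 to 4.93 CPM with the control. In D425 that sum was 22.1 to 34.7 CPM with hairpin 8, 16.6 to 42.6 CPM with hairpin 6 and 1.97 to 7.02 CPM with the control. COL1A1 and LUM were higher with either hairpin in D425. DCN there stood at a log2 difference from control of 0.13 with hairpin 8 and -0.93 with hairpin 6 (adjusted p = 0.918 and 0.452 by edgeR). In D425 other sums differed too: the group 3 markers summed to 4270 to 5020 CPM with hairpin 8, 4510 to 5150 CPM with hairpin 6 and 5460 to 6240 CPM with the control. The astrocyte markers, of which SLC1A3 alone reached 1 CPM, summed to 17.6 to 31.5 CPM with hairpin 8, 27.8 to 37.4 CPM with hairpin 6 and 43.7 to 52.8 CPM with the control in D425. In D458 the astrocyte sums overlapped, and the group 3 sums were 5310 to 6500 CPM with hairpin 8, 5670 to 6520 CPM with hairpin 7 and 6380 to 6890 CPM with the control. Most of the group 3 sum came from MYC and OTX2, which averaged 3260 and 1800 CPM. At an adjusted p under 0.05 (edgeR), 1 of 8 tested rose and 3 fell with hairpin 8 in D425 (11.6% and 10.1% of all genes). With hairpin 6, 0 rose and 2 fell (7.31% and 6.84%), and MYC fell with both. In D458, 1 rose and 1 fell with hairpin 8 (12.1% and 11.1%), and 1 rose and 0 fell with hairpin 7 (11.5% and 11.1%). The list holds EYA2, the target of the hairpins, so its fall is part of these counts. EYA2 was the marker that fell with hairpin 8 in D458, and it was among those that fell with either hairpin in D425. The part of these shifts in the comparisons with controls was not tested, and in these bulk libraries fewer cells of a type and less RNA per cell cannot be told apart. One library stood apart from its group: D425 hairpin 8 replicate 2 had 89.7 CPM of CMTR1, against 36.8 and 38.4 CPM in replicates 1 and 3. The CMTR1 differences that rest on it are given with and without it.

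The hairpins were designed against EYA2, so the mRNAs of EYA2 and of the cap enzymes were compared letter by letter to show how alike they are. The hairpin sequences themselves were not used here. In the GENCODE v29 transcripts (GRCh38), the most similar window of 19 bases between EYA2 (chromosome 20) and CMTR1 (chromosome 6) started at base 1530 of the EYA2 transcript and at base 2268 of the CMTR1 transcript, in the CMTR1 coding sequence, and had 2 mismatches. The closest window for RNMT, also in its coding sequence, had 3 mismatches. Both pairs are printed 5′ to 3′ in the sense of the mRNA, with the differing bases in capitals.
EYA2, window closest to CMTR1: CgggtgaaggagAtgtaca
CMTR1: AgggtgaaggagGtgtaca
EYA2, window closest to RNMT: ttttTgaActggTatgtgg
RNMT: ttttGgaCctggGatgtgg
A window with 2 or fewer mismatches to EYA2 was present in 2085 of 12881 coding mRNAs scanned (16.2%), and one with 3 or fewer in 76.2%. CMTR2 and RNGTT had 4 mismatches in their closest windows, as 99.7% of the mRNAs had at most. The longest identical stretch shared with EYA2 was 13 bases in RNGTT, 11 in CMTR1, 11 in CMTR2 and 10 in RNMT, and a stretch of 11 or more was shared by 92.1% of the mRNAs. A match of this kind is a description of the sequences and not a site.

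CMTR1, the methyltransferase of the first transcribed nucleotide, was low in the hairpin 8 libraries of both lines and near the control with hairpins 6 and 7. In D458, CMTR1 had 63.6, 85.4 and 88.6 CPM with hairpin 8, against 179, 165 and 202 CPM with hairpin 7 and 172, 197 and 210 CPM with the control. In D425, it had 36.8, 89.7 and 38.4 CPM with hairpin 8, against 116, 123 and 113 CPM with hairpin 6 and 116, 103 and 107 CPM with the control. In each line the 3 hairpin 8 libraries lay below all 6 others, and D425 hairpin 8 replicate 2 was the one closest to them. Against the control library of the same replicate number, hairpin 8 left 37%, 43.3% and 42.2% of the CMTR1 level in D458 and 31.8%, 87.2% and 36% in D425.

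**Figure D1:**
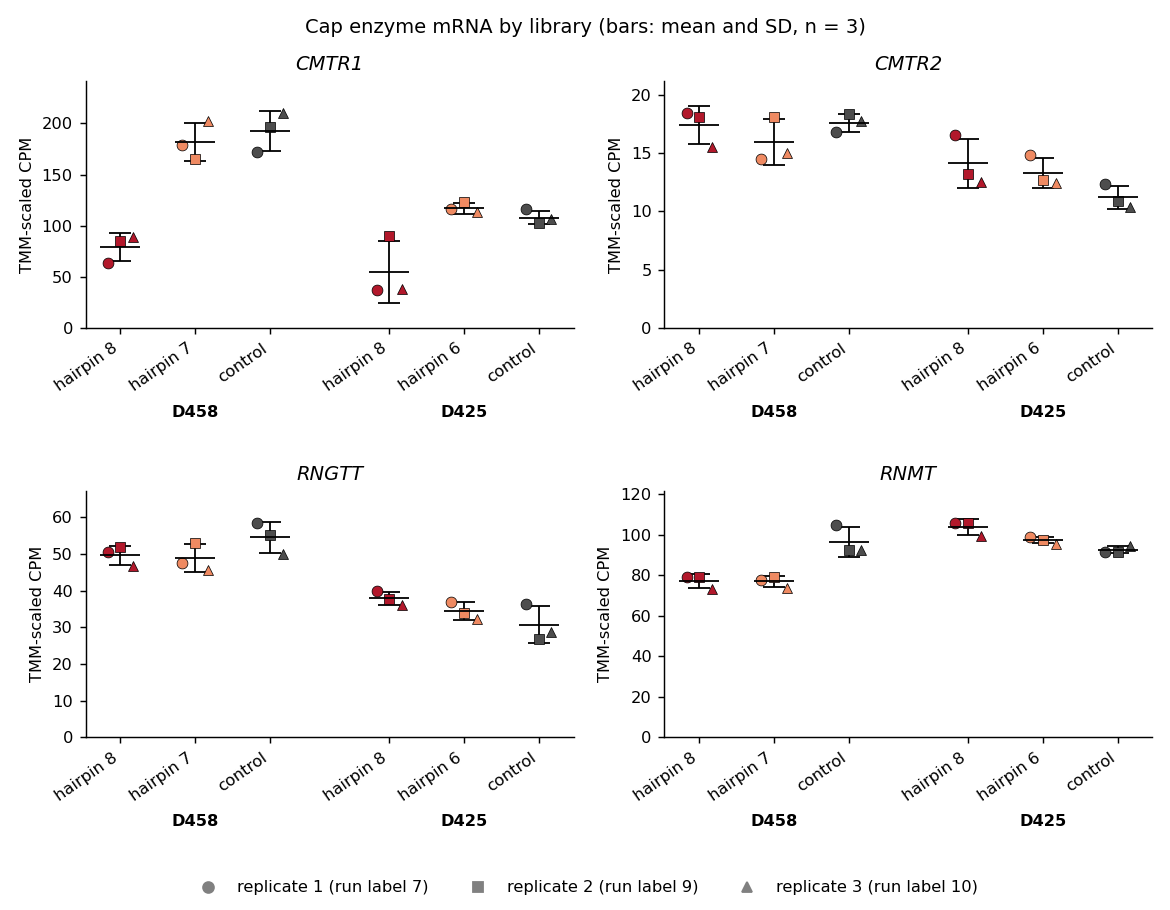
Level (CPM after TMM scaling) of CMTR1, CMTR2, RNGTT and RNMT in each of the 18 libraries, by line and hairpin, with symbols for replicate numbers and black bars for the mean and SD of 3 libraries. CMTR1 was lowest in the hairpin 8 groups, with means of 79.2 CPM in D458 and 55 CPM in D425, and D425 hairpin 8 replicate 2 stands above its group at 89.7 CPM.

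The fold changes for CMTR1 are given as descriptions, since the gene was chosen for these values. Relative to the control, CMTR1 with hairpin 8 stood at a log2 difference of -1.28 (95% interval -1.81 to -0.76), or 41.1% of the control, in D458, and at -0.98 (-1.51 to -0.46), or 50.7%, in D425. With hairpin 7 in D458 the log2 difference from the control was -0.09 (-0.60 to 0.43), and with hairpin 6 in D425 it was 0.12 (-0.40 to 0.63). Both intervals include 0. Since CMTR1 was chosen for its low level with hairpin 8, the intervals are no test of a difference between hairpins.

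Hairpin 8 set directly against the other hairpin of the line used no control library. CMTR1 with hairpin 8 was then at 43.6% of hairpin 7 in D458 (log2 -1.20, SE 0.25) and at 46.8% of hairpin 6 in D425 (log2 -1.10, SE 0.25), and the mean over both lines was -1.15 (SE 0.18). Library by library it was 35.5%, 51.9% and 44% of hairpin 7 in D458, and 31.7%, 72.8% and 34.1% of hairpin 6 in D425. Without D425 hairpin 8 replicate 2, the D425 log2 difference of CMTR1 was -1.64 from hairpin 6 and -1.53 from the control, and the mean over lines was -1.42. The hairpin 8 difference from control in D458 minus that in D425 was -0.30 (SE 0.35, 95% interval -1.04 to 0.43), and without that 1 library it turned to 0.24, so its direction rests on it.

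EYA2 itself fell past the threshold with hairpin 8 in both lines and with hairpin 6. EYA2 had 18.2, 23.5 and 19.3 CPM with hairpin 8 in D458, against 47.5, 51.9 and 45.1 CPM with hairpin 7 and 73.7, 67.5 and 69.8 CPM with the control, and these 3 groups did not overlap. The difference from control with hairpin 8 was -1.79 on the log2 scale (SE 0.27, adjusted p = 0.000506). The difference with hairpin 7 was -0.55 (SE 0.26, adjusted p = 0.137) and passed the threshold of 0.05 with the replicate number as a block (adjusted p = 0.00692). Hairpin 8 minus hairpin 7 gave -1.24 (SE 0.27, adjusted p = 1, and 0.011 with the block). In D425, EYA2 had 17.5, 12 and 12.7 CPM with hairpin 8 and 15.1, 10.7 and 9.72 CPM with hairpin 6, against 43.6, 24.6 and 15.5 CPM with the control. The highest hairpin 8 library overlapped the lowest control there, and the controls spread widely. The D425 differences from control were -0.98 with hairpin 8 (SE 0.27, adjusted p = 0.017) and -1.24 with hairpin 6 (SE 0.27, adjusted p = 0.00693). The call for hairpin 8 was lost without D425 control replicate 1, where the EYA2 difference was -0.51 (adjusted p = 0.0865), hairpin 8 replicate 2 (0.0571) or hairpin 8 replicate 3 (0.0601). Without that control library the EYA2 difference with hairpin 6 was -0.76 (adjusted p = 0.0184). With all libraries, EYA2 in D425 stood at 50.4% of the control with hairpin 8 and 42.4% with hairpin 6, and CMTR1 at 50.7% with hairpin 8 and 108% with hairpin 6. The EYA2 shares rest on control replicate 1, and the CMTR1 share with hairpin 8 on hairpin 8 replicate 2. In D425 hairpin 8 replicate 2, EYA2 at 12 CPM was the lowest of its group, whereas CMTR1 was the highest of its group. Against the control library of the same replicate number, EYA2 with hairpin 8 in D425 stood at 40.2%, 48.9% and 81.5%. By that measure replicate 2 was not the lowest for EYA2.

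**Figure D2:**
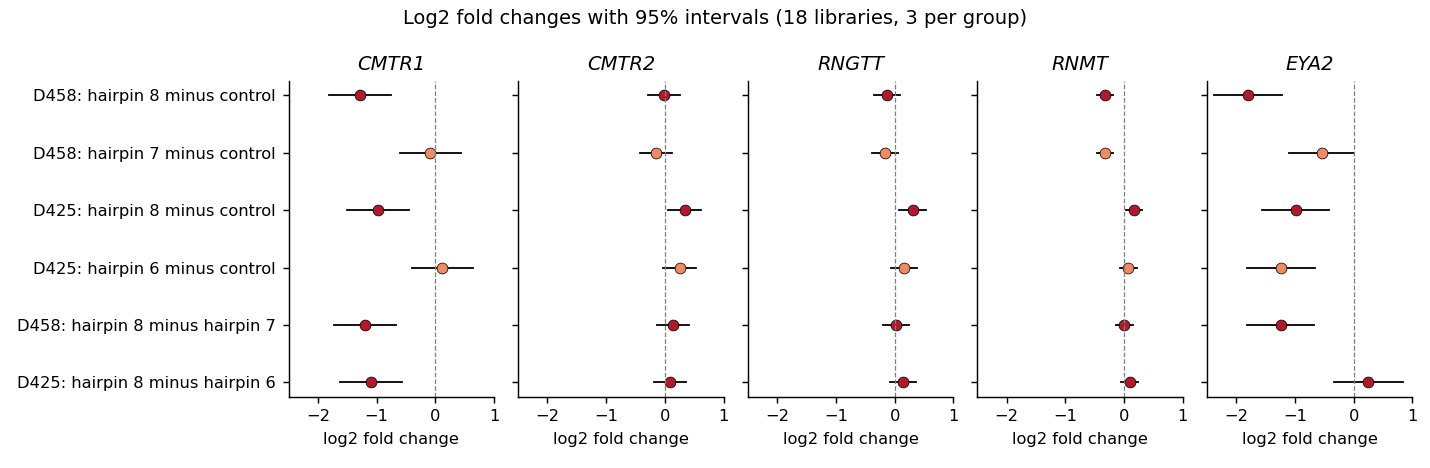
Log2 fold changes (points) with 95% intervals (lines) of the 4 cap enzymes and EYA2 for each hairpin against control and for hairpin 8 against the other hairpin, in each line. CMTR1 lay at -1.28 and -0.98 with hairpin 8 and at -0.09 and 0.12 with hairpins 7 and 6.

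CMTR2, which methylates the second transcribed nucleotide, did not share the CMTR1 pattern. It had 18.4, 18.1 and 15.5 CPM with hairpin 8, 14.5, 18.1 and 15 CPM with hairpin 7 and 16.8, 18.3 and 17.7 CPM with the control in D458, where the 3 groups overlapped. Neither hairpin passed the test there, with log2 differences of -0.02 (SE 0.13, adjusted p = 0.929) for hairpin 8 and -0.15 (SE 0.13, adjusted p = 0.417) for hairpin 7. In D425, CMTR2 had 16.5, 13.2 and 12.5 CPM with hairpin 8 and 14.8, 12.7 and 12.4 CPM with hairpin 6, against 12.3, 10.9 and 10.4 CPM with the control. All 6 hairpin libraries of D425 lay above the 3 controls. The difference with hairpin 8 was 0.33 (SE 0.13, adjusted p = 0.0777) and passed with the replicate block (0.33, adjusted p = 0.0146), while that with hairpin 6 was 0.25 (SE 0.13, adjusted p = 0.235). Between hairpin 8 and hairpin 7 the difference was 0.13 (95% interval -0.14 to 0.40), and between hairpin 8 and hairpin 6 it was 0.08 (SE 0.13). A difference between hairpins as large as that of CMTR1 lies outside the D458 interval.

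RNGTT, the enzyme that attaches the cap guanosine, had 50.5, 51.8 and 46.8 CPM with hairpin 8, 47.6, 53.1 and 45.7 CPM with hairpin 7 and 58.5, 55.1 and 49.9 CPM with the control in D458. The groups overlapped, and the differences of -0.13 with hairpin 8 (SE 0.11, adjusted p = 0.379) and -0.16 with hairpin 7 (SE 0.11, adjusted p = 0.284) did not pass. In D425, RNGTT had 39.8, 37.8 and 36 CPM with hairpin 8 and 37, 33.9 and 32.2 CPM with hairpin 6, against 36.4, 26.9 and 28.7 CPM with the control. Control replicate 1 lay inside the range of both hairpin groups. The difference with hairpin 8 was 0.31 (SE 0.11), at an adjusted p that rounds to 0.05 and lies just under the threshold. That call was lost without most single libraries, up to an adjusted p of 0.209 without D425 control replicate 2. With hairpin 6 it was 0.16 (SE 0.11, adjusted p = 0.345), but 0.30 (adjusted p = 0.0428) without D425 control replicate 1. Hairpin 8 differed from the other hairpin by 0.03 in D458 and by 0.14 in D425, neither of which passed.

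RNMT, the cap guanine methyltransferase, fell with both hairpins in D458. It had 79.3, 79.2 and 73.3 CPM with hairpin 8 and 77.7, 79.3 and 74 CPM with hairpin 7, against 105, 92.4 and 92.3 CPM with the control, and the 6 hairpin libraries all lay below the 3 controls. The log2 difference was -0.32 with hairpin 8 (SE 0.07, adjusted p = 0.00357), leaving 80.1% of the control, and -0.33 with hairpin 7 (SE 0.07, adjusted p = 0.00345), leaving 79.8%. Both contrasts share the same controls. The calls were kept without any single library, with highest adjusted p-values of 0.029 for hairpin 8 and 0.0268 for hairpin 7 without D458 control replicate 1. They were lost when all libraries of replicate number 2 were left out (0.0652 and 0.0648) or all of number 3 (0.0731 and 0.0743). Hairpin 8 differed from hairpin 7 by only 0.01 (95% interval -0.14 to 0.15).

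In D425, RNMT had 106, 106 and 99.5 CPM with hairpin 8 and 99.1, 97.6 and 95.7 CPM with hairpin 6, against 91.8, 91.7 and 94.6 CPM with the control. The hairpin libraries lay above the controls here, and the differences were 0.16 with hairpin 8 (SE 0.07, adjusted p = 0.0837; 0.0373 with the replicate block) and 0.07 with hairpin 6 (SE 0.07, adjusted p = 0.522). The hairpin 8 difference in D458 minus that in D425 was -0.48 for RNMT (SE 0.09, adjusted p = 0.00409) and passed the test of the difference itself. It was lost without replicate number 2 (adjusted p = 0.136) or 3 (0.0923). The same comparison gave -0.44 for RNGTT (SE 0.15, adjusted p = 0.0666; 0.00619 with the replicate block) and -0.35 for CMTR2 (SE 0.18, adjusted p = 0.223). Leaving out D425 control replicate 1 took RNGTT past the threshold in that comparison (-0.58, adjusted p = 0.0072), as did leaving out replicate number 1 (adjusted p = 0.0309).

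Of CMTR2, RNGTT and RNMT, the number called against control was 1 with hairpin 8 in D458, where 23.2% of all tested genes were called, 1 with hairpin 7 in D458 (22.6% of all genes), 1 with hairpin 8 in D425 (21.7%) and 0 with hairpin 6 in D425 (14.1%). In the comparison of the hairpin 8 effect between lines, 1 of these 3 was called, in the lower direction, where 11.8% of all genes were called (6.19% higher and 5.65% lower in D458). Between hairpin 8 and the other hairpin, edgeR called 0 of the 14850 genes (a share of 0) in D458, in D425 and in the mean of the lines. At an unadjusted p under 0.05 there were 274, 519 and 710 genes in these 3 comparisons, and DESeq2 called 4, 6 and 28.

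Between the control groups of the lines, 62.8% of all genes were called (31.4% higher and 31.4% lower in D458), and 3 of the 4 cap enzymes were higher in D458. CMTR1 averaged 193 ± 19.5 CPM in D458 controls and 108 ± 6.59 CPM in D425 controls (SD, n = 3 each), a log2 difference of 0.83 (SE 0.25, adjusted p = 0.00759 by edgeR). This call was lost without replicate number 3 (adjusted p = 0.0772). RNGTT averaged 54.5 ± 4.31 CPM in D458 controls and 30.7 ± 5.07 CPM in D425 controls, a difference of 0.83 (SE 0.11, adjusted p = 3.89e-06 by edgeR). CMTR2 averaged 17.6 ± 0.772 CPM in D458 controls and 11.2 ± 1 CPM in D425 controls, a difference of 0.65 (SE 0.13, adjusted p = 0.000351 by edgeR). RNMT did not pass, at 96.5 ± 7.18 CPM in D458 controls and 92.7 ± 1.65 CPM in D425 controls (0.06, SE 0.07, adjusted p = 0.461 by edgeR). CMTR1 and RNGTT lie on chromosome 6, where the median of all 745 tested genes was 0.54 in this comparison. The 10 nearest tested neighbours of CMTR1 had a median of 0.52 (6 called higher, 2 lower), and those of RNGTT 0.89 (6 higher, 1 lower). For CMTR2, on chromosome 16, the medians were 0.06 over the chromosome and 0.11 over its neighbours. Whether the cap enzymes differed beyond their surroundings was not tested.

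Divided by exon length, levels can be set beside each other. In the D458 controls CMTR1 stood highest at 47.8 ± 4.82 CPM per kilobase, followed by RNMT at 15 ± 1.11, RNGTT at 12 ± 0.945 and CMTR2 at 3.46 ± 0.152 CPM per kilobase (SD, n = 3). The D425 controls had the same order, with CMTR1 at 26.9 ± 1.63, RNMT at 14.4 ± 0.256, RNGTT at 6.73 ± 1.11 and CMTR2 at 2.2 ± 0.197 CPM per kilobase. No neighbours in either order overlapped within 1 SD. With hairpin 8, CMTR1 averaged 19.6 CPM per kilobase in D458 and 13.6 CPM per kilobase in D425, so even the lowered level was several times that of CMTR2.

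Other genes were ranked by the smaller of their hairpin 8 falls against the other hairpin in D458 and D425, as a description. Among 12739 genes averaging at least 1 CPM, CMTR1 ranked 2, with the microRNA precursor row MIR30A at 1 and SCAMP2 at 8. SCAMP2 lay at -0.65 in D425 and -0.64 in D458. At an unadjusted p under 0.05 in all 4 contrasts of hairpin 8 (against control and against the other hairpin, in both lines), 17 genes were lower and 7 were higher, and at the adjusted threshold edgeR called 0 and DESeq2 1 gene lower. That gene was CMTR1, which was chosen for its values in these same contrasts, so the count is a description only.

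**Figure D3:**
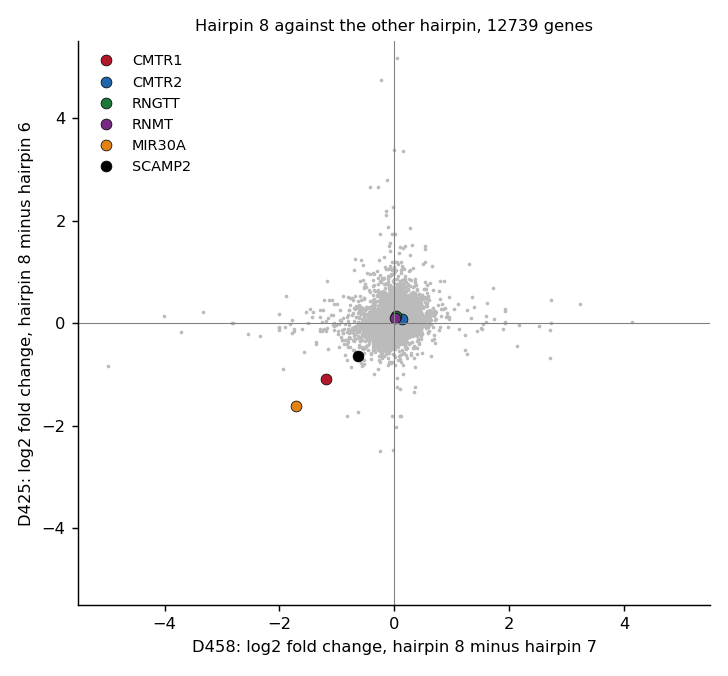
Log2 fold change of hairpin 8 minus hairpin 7 in D458 (x axis) and of hairpin 8 minus hairpin 6 in D425 (y axis), 1 grey point for each of 12739 genes averaging at least 1 CPM, with named genes in colour. CMTR1 lies at -1.20 and -1.10, while CMTR2, RNGTT and RNMT lie near 0 on both axes.

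The genes whose levels followed CMTR1 most closely over the 18 libraries, after each line's mean was removed, were ALDH9A1 (r = 0.956), HNRNPA0 (0.947), SCAMP2 (0.944), ZNF395 (0.915) and WBP11 (0.914). ALDH9A1 is an aldehyde dehydrogenase, HNRNPA0 an RNA-binding protein, SCAMP2 a secretory carrier membrane protein, ZNF395 a zinc finger protein and WBP11 a splicing factor. These coefficients describe libraries that share their groups and replicate numbers. The first 3 kept their places when D425 hairpin 8 replicate 2 was left out and when the mean of each replicate number was removed, whereas ZNF395 and WBP11 gave way to other genes. Over the 12 libraries without controls, 2 of the 5 stayed among the highest 5, SCAMP2 and ALDH9A1, and SLC9A3R1 took the third place. The lowest coefficients belonged to COQ10B (-0.876), AFTPH (-0.837) and PAFAH2 (-0.823). The other cap enzymes did not follow CMTR1, with r = 0.0804 for RNMT, -0.234 for RNGTT and -0.38 for CMTR2, and EYA2 stood at 0.535.

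SCAMP2 had 19.3, 25.9 and 26.6 CPM with hairpin 8, against 32.3, 41.1 and 38.4 CPM with hairpin 7 and 46.5, 44.3 and 39.2 CPM with the control in D458. In D425 it had 27.5, 55.1 and 27.1 CPM with hairpin 8, against 54.5, 57.9 and 59.5 CPM with hairpin 6 and 64.6, 62.2 and 64.3 CPM with the control. The hairpin 8 groups were low in both lines, and D425 hairpin 8 replicate 2 lay near the hairpin 6 libraries. Without that library the SCAMP2 difference between hairpin 8 and hairpin 6 was -1.07, against -0.65 with it. ALDH9A1 had 36.6, 54.4 and 31.3 CPM with hairpin 8, against 59.6, 60.6 and 62.1 CPM with hairpin 6 in D425. HNRNPA0 had 222, 336 and 187 CPM with hairpin 8, against 346, 360 and 324 CPM with hairpin 6 in D425. Replicate 2 was the highest hairpin 8 library for each. These genes were chosen for following CMTR1 over libraries that include this one, so that likeness follows from the choice.

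The size of that departure is given as a description of the chosen genes. Of the fall between the hairpin 6 mean and the mean of hairpin 8 replicates 1 and 3 in D425, this library showed 34.6% for CMTR1, 23.8% for ALDH9A1, 22.9% for ZNF395, 7.44% for SCAMP2, 5.25% for HNRNPA0 and -7.47% for WBP11. Another set, of 20 genes, was chosen in D458 alone, as those lower with hairpin 8 than with hairpin 7 at the smallest p. CMTR1, EYA2, ALDH9A1 and SCAMP2 were among them. The median log2 difference of these 20 genes between hairpin 8 and hairpin 6 in D425 was -0.31 in replicate 1 (16 of 20 lower). It was -0.06 in replicate 2 (14 of 20) and -0.39 in replicate 3 (18 of 20). The share of all genes lower in the same pairs of libraries is not given here, so these counts are a description only. For CMTR1 alone the 3 D425 values were -1.66, -0.46 and -1.55.

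**Figure D4:**
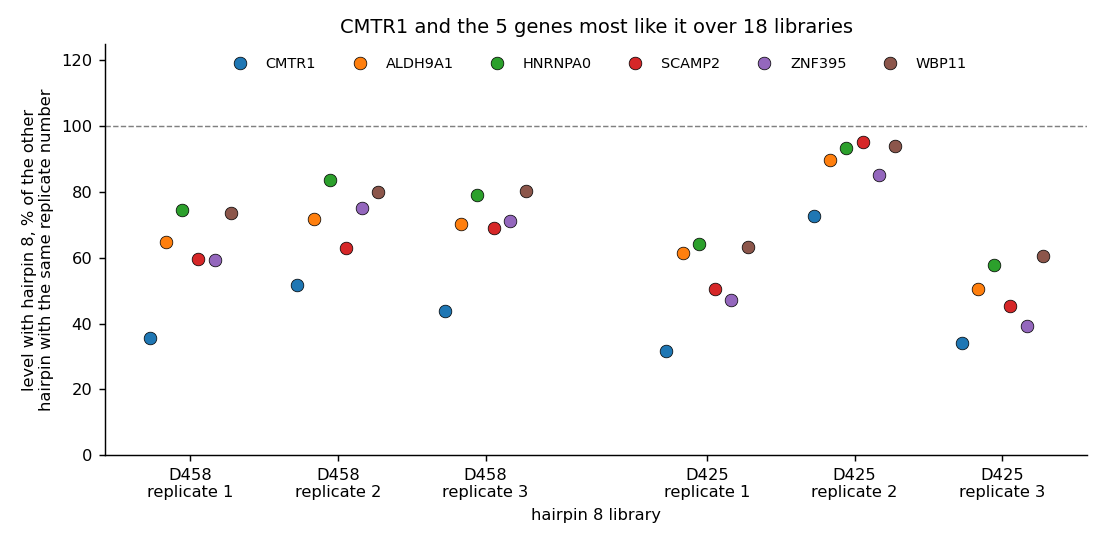
Level in each hairpin 8 library as a percentage of the other hairpin's library with the same line and replicate number, for CMTR1 and the 5 genes most like it, with a dashed line at equal levels. In D425 replicate 2 all 6 genes lie higher than in D425 replicates 1 and 3, with CMTR1 at 72.8%.

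MIR30A, named because it ranked before CMTR1, is the row of a microRNA precursor. That precursor also serves as the scaffold of many hairpin vectors, but the sample descriptions do not name the scaffold used, and whether its reads came from vectors was not tested. The RefSeq hairpin (GRCh38.p14, chr6:71403551-71403621, minus strand) is printed 5′ to 3′ with the mature arms in capitals.
MIR30A hairpin: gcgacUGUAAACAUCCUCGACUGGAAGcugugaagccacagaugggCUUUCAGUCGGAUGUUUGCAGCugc
MIR30A had 2.48, 0.913 and 1.74 CPM with hairpin 8, against 7.32, 4.03 and 5.51 CPM with hairpin 7 and 1.82, 0.831 and 1.46 CPM with the control in D458. In D425 it had 1.43, 5.6 and 2.89 CPM with hairpin 8, against 6.21, 9.98 and 14.2 CPM with hairpin 6 and 1.72, 1.34 and 1.05 CPM with the control. Hairpins 6 and 7 stood above both other groups in their lines. D425 hairpin 8 replicate 2, at 5.6 CPM, was the highest of its group and near the lowest hairpin 6 library.

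Genes next to CMTR1 on chromosome 6 did not share its difference between hairpins. The median over the 10 nearest tested genes was -0.01 for hairpin 8 minus hairpin 7 in D458 and -0.06 for hairpin 8 minus hairpin 6 in D425. The adjacent gene RNF8, a ubiquitin ligase of the DNA damage response, lay at 0.02 in D458 and -0.07 in D425, and CCDC167 on the other side lay at -0.08 and -0.14. MDGA1, chosen after its values were seen, was the neighbour with the widest difference, at -0.95 in D458 and 0.26 in D425. Against control, the median over these 10 genes was -0.12 with hairpin 8 in D458, where 0 fell and 1 rose, and -0.05 with hairpin 8 in D425. RNF8 stood at -0.24 with hairpin 8 and -0.27 with hairpin 7 in D458 (adjusted p = 0.0586 and 0.042 by edgeR). The first passed with the replicate block (0.0126), and the second was lost without any of 10 single libraries. The 10 nearest tested neighbours of RNMT likewise had medians near 0 between hairpins, at -0.01 for hairpin 8 minus hairpin 7 in D458 and -0.04 for hairpin 8 minus hairpin 6 in D425. Against control in D458, where 11.1% of all genes fell and 12.1% rose with hairpin 8, 5 of them fell and 1 rose with hairpin 8 (median -0.41), and 4 fell and 1 rose with hairpin 7 (median -0.32; 11.1% and 11.5% of all genes). The median of all 199 tested genes of chromosome 18 was -0.19 with either hairpin in D458, and 0.03 with hairpin 8 in D425.

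Among 11 partners of the capping enzymes and other cap-modifying proteins, 0 rose and 3 fell with hairpin 8 in D458 (12.1% of all genes rose and 11.1% fell), and 1 rose and 3 fell with hairpin 7 (11.5% and 11.1%). In D425, 0 rose and 4 fell with hairpin 8 (11.6% and 10.1% of all genes), and 0 rose and 1 fell with hairpin 6 (7.31% and 6.84%). Their medians lay between -0.15 and -0.09, while that of all genes was within 0.02 of 0. TGS1, which makes the trimethylguanosine cap of small nuclear RNAs, fell in all 4 comparisons. Its log2 differences from control were -0.47 with hairpin 8 and -0.48 with hairpin 7 in D458 (adjusted p = 0.0014 and 0.00134), and -0.32 with hairpin 8 and -0.32 with hairpin 6 in D425 (0.0113 and 0.0152). The D458 calls were kept without any single library, while both D425 calls were lost without D425 control replicate 3 (0.0634 with hairpin 8 and 0.0875 with hairpin 6). The hairpin 6 call was also lost without hairpin 6 replicate 1, hairpin 6 replicate 3 or control replicate 2. MEPCE, the methylphosphate capping enzyme of 7SK RNA, fell with hairpin 8 in both lines and with hairpin 7. It stood at -0.38 with hairpin 8 and -0.29 with hairpin 7 in D458 (adjusted p = 0.000687 and 0.00463), and at -0.24 with hairpin 8 and -0.13 with hairpin 6 in D425 (0.00982 and 0.18). The 3 MEPCE calls were kept without any single library.

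The other partners gave calls that rested on few libraries, or none. MNAT1, a subunit of the kinase module of TFIIH, stood at -0.32 with hairpin 8 and -0.39 with hairpin 7 in D458 (adjusted p = 0.0389 and 0.0151), calls that were lost without hairpin 8 replicate 1 (0.251) and without hairpin 7 replicate 1 (0.0789), among others. It stood at -0.12 with hairpin 8 and -0.09 with hairpin 6 in D425. PCIF1, which methylates adenosine at the first transcribed position, stood at -0.12 with hairpin 8 and -0.01 with hairpin 7 in D458. In D425 it stood at -0.36 with hairpin 8 (adjusted p = 0.0348, lost without hairpin 8 replicate 1 or 3 or control replicate 2 or 3) and at -0.28 with hairpin 6 (0.125, and 0.00694 with the replicate block). SUPT5H, the elongation factor subunit that recruits capping enzymes, stood at 0.06 with hairpin 8 and 0.25 with hairpin 7 in D458 (adjusted p = 0.599 and 0.0351), and at -0.24 with hairpin 8 and 0.01 with hairpin 6 in D425 (0.0444 and 0.981). Its D425 call was lost without 15 of the 18 single libraries, and its D458 call without 5 (up to 0.123 without hairpin 7 replicate 1).

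The RNMT activator RAMAC, listed as FAM103A1, stood between -0.07 and 0.16 in the 4 comparisons with controls and passed in 0 of them. DHX15, a helicase that binds CMTR1, stood at -0.19 with hairpin 8 and -0.13 with hairpin 7 in D458 (adjusted p = 0.1 and 0.275, the first 0.0182 with the replicate block), and at -0.08 with hairpin 8 and 0.03 with hairpin 6 in D425. SUPT4H1 (the partner of SUPT5H), CCNH (the cyclin of CDK7) and POLR2A (the catalytic subunit of RNA polymerase II) passed in none of these 4 comparisons. CDK7, the kinase of TFIIH, passed with hairpin 7 in D458 under the replicate block alone (adjusted p = 0.0116).

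Farther along the life of a cap, 8 nuclear cap-binding genes, 13 of 14 cap-dependent translation genes and 22 decapping genes were tested. Of the nuclear group, 0 rose and 3 fell with hairpin 8 in D458 (12.1% of all genes rose and 11.1% fell), and 0 rose and 1 fell with hairpin 7 (11.5% and 11.1%). In D425, 0 rose and 2 fell with hairpin 8 (11.6% and 10.1% of all genes), and 0 rose and 1 fell with hairpin 6 (7.31% and 6.84%). The export adaptor ALYREF stood at -0.40 with hairpin 8 and -0.35 with hairpin 7 in D458 (adjusted p = 0.0293 and 0.0526, the second 0.0052 with the replicate block), and at -0.61 with hairpin 8 and -0.41 with hairpin 6 in D425 (0.00267 and 0.0362). Of its calls, that with hairpin 8 in D425 was kept without any single library. The others were each lost without 4 libraries, with adjusted p-values up to 0.172 without hairpin 8 replicate 1 in D458 and 0.127 without hairpin 6 replicate 1 in D425. ZC3H18, a partner of the cap-binding complex, fell in D458, at -0.31 with hairpin 8 and -0.30 with hairpin 7 (adjusted p = 0.0176 and 0.0209), and the calls were lost without hairpin 8 replicate 1 (0.126) or control replicate 2 (0.126 for hairpin 7), among others.

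Of the 13 translation genes, 1 rose and 2 fell with hairpin 8 in D458 (12.1% of all genes rose and 11.1% fell), and 0 rose and 1 fell with hairpin 7 (11.5% and 11.1%). In D425, 1 rose and 2 fell with hairpin 8 (11.6% and 10.1% of all genes), and 1 rose and 1 fell with hairpin 6 (7.31% and 6.84%). These counts lie near the shares of all genes. EIF4G1, the scaffold that joins eIF4E to the ribosome, fell in all 4 comparisons, at -0.36 with hairpin 8 and -0.36 with hairpin 7 in D458 (adjusted p = 0.00447 and 0.00422), and at -0.37 with hairpin 8 and -0.32 with hairpin 6 in D425 (0.00304 and 0.00939). The hairpin 6 call was lost without hairpin 6 replicate 3 or control replicate 3 (0.0591), and the other 3 were kept without any single library. EIF4EBP2, an inhibitor of eIF4E, rose in D425, at 0.73 with hairpin 8 and 0.65 with hairpin 6 (adjusted p = 9.71e-06 and 4.24e-05), and both calls were kept without any single library. In D458 it stood at 0.24 with hairpin 8 (0.0225, lost without hairpin 8 replicate 1 or control replicate 1) and 0.06 with hairpin 7 (0.523).

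Of the 22 decapping genes, 0 rose and 6 fell with hairpin 8 in D458 (12.1% of all genes rose and 11.1% fell), and 0 rose and 4 fell with hairpin 7 (11.5% and 11.1%). In D425, 0 rose and 5 fell with hairpin 8 (11.6% and 10.1% of all genes), and 0 rose and 3 fell with hairpin 6 (7.31% and 6.84%). The nuclear 5′ exonuclease XRN2 fell in all 4 comparisons, at -0.21 with either hairpin in D458 (adjusted p = 0.0303 for hairpin 8 and 0.0319 for hairpin 7) and at -0.31 with hairpin 8 and -0.26 with hairpin 6 in D425 (0.00321 and 0.0134). Its hairpin 8 call in D425 was kept without any single library, while the D458 calls were lost without any of 5 libraries and the hairpin 6 call without any of 3 (hairpin 6 replicates 1 and 3, control replicate 3). NUDT16, a nuclear decapping enzyme, fell in D425, at -0.56 with hairpin 8 and -0.44 with hairpin 6 (adjusted p = 0.000581 and 0.00422), and stood at 0.10 with hairpin 8 and 0.09 with hairpin 7 in D458. LSM14B, of the cytoplasmic granules that hold decapping factors, fell in D425, at -0.34 with hairpin 8 and -0.31 with hairpin 6 (adjusted p = 0.00156 and 0.00497), and stood within 0.01 of 0 with either hairpin in D458. The D425 calls of NUDT16 and LSM14B were kept without any single library.

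The decapping enhancer EDC3 fell in D458, at -0.30 with hairpin 8 and -0.28 with hairpin 7 (adjusted p = 0.0106 and 0.0144), and each call was lost without replicate 1 of its hairpin or D458 control replicate 1. The helicase DDX6, which activates decapping, stood at -0.35 with hairpin 8 and -0.36 with hairpin 7 in D458 (adjusted p = 0.0271 and 0.0231), and at -0.36 with hairpin 8 and -0.32 with hairpin 6 in D425 (0.0259 and 0.0542, the second 0.00215 with the replicate block). Each of its 3 calls was lost without 4 or 5 of the single libraries of the groups compared. Between hairpin 8 and the other hairpin (edgeR, mean of lines), 0 genes of each of these lists were called. As 0 of all 14850 tested genes were called there, that count says nothing about these lists. The list medians lay between -0.03 and -0.01.

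**Figure D5:**
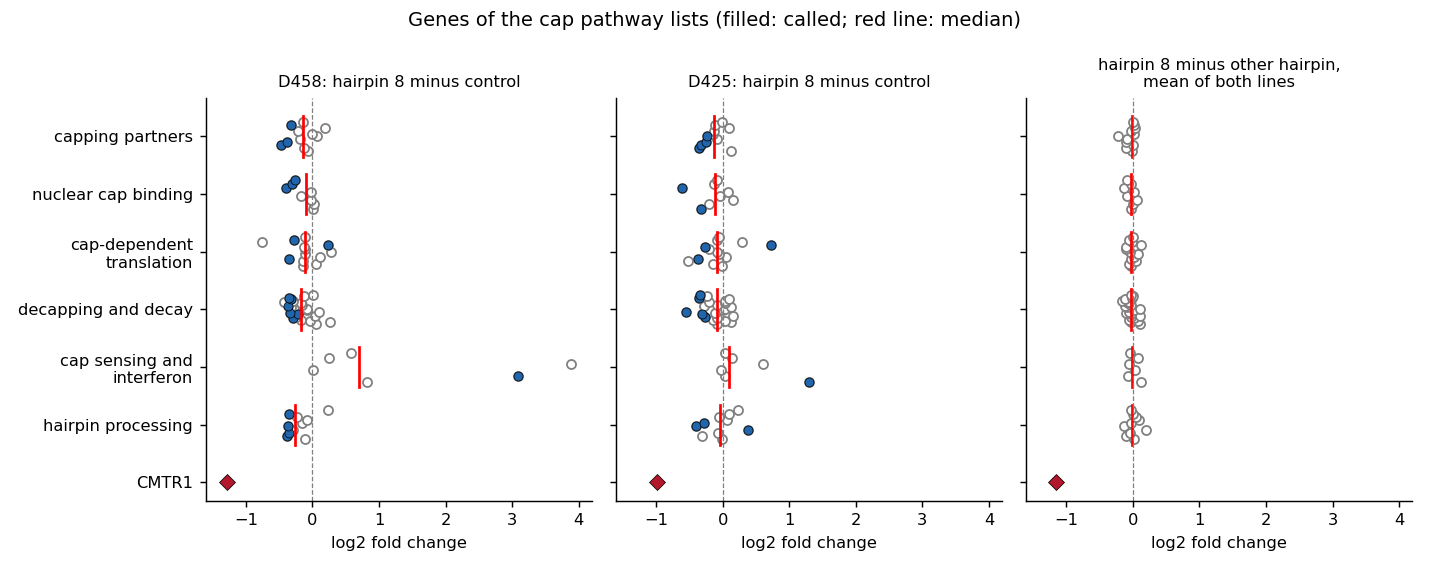
Log2 fold changes of every tested gene of the cap pathway, cap-sensing and hairpin-processing lists, 1 point per gene, filled where called, with the list median as a red line and CMTR1 as a diamond. The panels show hairpin 8 minus control in D458 and in D425, and hairpin 8 minus the other hairpin as the mean of lines, where the capping partners had medians of -0.15, -0.13 and near 0.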

How the data were processed

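The deposited table holds whole-number counts of reads per gene that the authors made for each of the 18 libraries; per the submitters' processing notes the tools included TopHat2, Bowtie2 and HTSeq with the build GRCh37/hg19, and their versions were not stated there. Libraries were strand-specific, per the labels' protocols. The handling of reads shared by similar genes was not stated.

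The members and lists were chosen with earlier results of these data known. Genes were kept by filterByExpr in edgeR 4.0.16 (R 4.3.3, limma 3.58.1; minimum count 10), scaled by TMM and fitted over 6 groups with the robust quasi-likelihood test. P-values were adjusted over 14850 genes by Benjamini-Hochberg, with a threshold of 0.05. The steps were tested on simulated data with 200 changed genes. The hairpin comparisons of CMTR1, and all values of the genes like it and of MIR30A, are described without tests of their own. The control groups of the lines were compared by test for CMTR1 too. Likeness was Pearson's r of log2 CPM (prior count 2).

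The labels give the replicates as numbers 1 to 3 in every group, and the column headers carry 7, 9 and 10 for these. A date-like string in the sample descriptions set replicate 1 apart from replicates 2 and 3 in each line. What these header numbers and strings mark is not stated. Libraries of one number tended to deviate together within a line, judged by correlating their deviations from group means. The 9 D425 pairs sharing a number averaged r = 0.37 (lowest 0.13, highest 0.7). The 18 D425 pairs of unlike numbers averaged -0.18 (lowest -0.48, highest 0.26). For D458 the average was 0.45 when the number was shared (lowest 0.21, highest 0.8). It was -0.21 when the numbers differed (lowest -0.71, highest 0.44). These ranges overlapped in each line. Deviations in a group of 3 sum to 0, which ties the negative averages to the positive ones, so they are not separate evidence. Values with the replicate number as a block are therefore given where they change a gene's call described here. Changed calls elsewhere, such as between the control groups, are not listed. Alternatives were DESeq2 1.42.0, RLE and upper-quartile factors, no filter, the block, each line alone, and leaving out each library or replicate number. Named genes were the members, EYA2, list genes called for both hairpins of a line or for hairpin 8 against the other hairpin (at most 6 a list by smallest adjusted p), all capping partners, the 5 highest and 3 lowest r, the genes lower with hairpin 8 in all 4 contrasts, and the neighbours of CMTR1. Transcript sequences and exon lengths came from GENCODE v29 (GRCh38). Gene order and the names of neighbours came from RefSeq, which 14525 of the tested genes matched. Both annotations were used for these purposes only.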

Additional observations from a re-analysis of the deposited data

Results flagged for a closer look

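These 4 genes were marked because their hairpin 8 difference from control differed between the lines by the test of that difference (edgeR, D458 minus D425), where 11.8% of all genes passed. RNMT stood at -0.485 (adjusted p = 0.00409) and EIF4EBP2 at -0.497 (0.00449), both lower in D458 relative to D425. NUDT16 stood at 0.654 (0.00447) and LSM14B, a component of cytoplasmic RNA granules, at 0.351 (0.0225), both the other way. LSM14B lost its call without D425 hairpin 8 replicate 1 or control replicate 3. With the replicate number as a block, 3934 genes passed that test. Over all libraries, 5 named genes passed with the block but not without it. These were EYA2 (-0.891, adjusted p = 0.00668 by edgeR), RNGTT (-0.446, 0.00619), SUPT5H (0.311, 0.0213), XPO5 (-0.282, 0.0404) and AGO3 (-0.445, 0.0247).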

How the results depend on the processing

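No alternative changed the direction of CMTR1 with hairpin 8 against the control or the other hairpin. With the replicate block, CMTR2 (0.326) and RNMT (0.164) passed for hairpin 8 minus control in D425, as did RNGTT for the hairpin 8 difference between lines (-0.446). RNMT with hairpin 8 in D425 also passed with DESeq2 (0.163) and upper-quartile factors (0.216), and RNGTT there was lost with RLE factors (0.303), without a filter (0.3) or in the line alone (0.314). The block called 5888 genes for hairpin 8 and 5937 for hairpin 7 against control in D458, 5521 for hairpin 8 and 4134 for hairpin 6 against control in D425, 3934 for the hairpin 8 difference between lines, 1 for hairpin 8 minus hairpin 7 and 27 for the mean of lines. DESeq2 called 4 genes for hairpin 8 minus hairpin 7, 6 for hairpin 8 minus hairpin 6, 28 for the mean of lines and 1 gene lower in all 4 hairpin 8 contrasts, and D458 alone called 2 for hairpin 8 minus hairpin 7. ZNF395 with hairpin 6 minus control turned to 0.00593 with upper-quartile factors, and the r of RNMT with CMTR1 to -0.411 without the 6 control libraries. The causes were not tested. Leaving out libraries or replicate numbers (fewer samples) gave ranges for CMTR1 of -1.57 to -0.708 for hairpin 8 minus control and -1.64 to -0.874 for hairpin 8 minus hairpin 6 in D425, 0.0365 to 0.174 for hairpin 6 minus control, -0.528 to 0.268 between lines and 0.734 to 0.961 between controls. The ranges for RNGTT were 0.217 to 0.444 with hairpin 8 and 0.0763 to 0.304 with hairpin 6 in D425, and -0.58 to -0.342 between lines. For RNMT they were -0.337 to -0.243 with hairpin 8 and -0.349 to -0.247 with hairpin 7 in D458, and -0.515 to -0.4 between lines. The hairpin 8 difference between lines turned sign within -0.296 to 0.133 for ALDH9A1, -0.231 to 0.22 for HNRNPA0, -0.366 to 0.369 for SCAMP2, -0.409 to 0.227 for ZNF395 and -0.24 to 0.282 for WBP11, each time where D425 hairpin 8 replicate 2 was left out, alone or with its number. Genes called against control ranged over 818 to 3562 (hairpin 8) and 663 to 3997 (hairpin 7) in D458 and 513 to 4146 (hairpin 8) and 116 to 3439 (hairpin 6) in D425, with 75 to 2322 between lines. Between hairpins they ranged over 0 to 1 in D458, 0 to 16 in D425 and 0 to 31 in the mean of lines, and genes lower in all 4 contrasts over 0 to 1, the highest each time without D425 hairpin 8 replicate 2. Of 78 calls on named genes, 43 were kept without any single library and 35 were lost without at least 1.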

Other observations

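Some ribosomal protein genes, listed because their mRNAs are read by cap-dependent translation, differed between the lines in the test of the hairpin 8 difference. In D458, 7 of 83 tested rose and 1 fell with hairpin 8 (12.1% of all genes rose and 11.1% fell), and 10 rose and 1 fell with hairpin 7 (11.5% and 11.1%), so the share that rose lay near or below that of all genes. The D458 list medians were 0.07 with hairpin 8 and 0.10 with hairpin 7. In D425, 1 rose and 21 fell with hairpin 8 (11.6% and 10.1% of all genes) and 1 rose and 7 fell with hairpin 6 (7.31% and 6.84%), with medians of -0.15 and -0.03. In that test, 22 were higher in D458 and 0 lower, where 6.19% of all genes were higher and 5.65% lower.

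Of 10 genes that process hairpins into small RNAs, 0 rose and 4 fell with hairpin 8 (12.1% of all genes rose and 11.1% fell) and 0 rose and 5 fell with hairpin 7 (11.5% and 11.1%) in D458. In D425, 1 rose and 2 fell with hairpin 8 (11.6% and 10.1% of all genes) and 0 changed with hairpin 6 (7.31% and 6.84%). XPO5, which exports hairpins from the nucleus, fell in D458, at -0.36 with hairpin 8 and -0.33 with hairpin 7 (adjusted p = 0.00348 and 0.00584). TARBP2, a partner of Dicer, stood at -0.37 with hairpin 8 and -0.34 with hairpin 7 in D458 (0.00583 and 0.00893) and at -0.39 with hairpin 8 and -0.14 with hairpin 6 in D425 (0.00301 and 0.273). Its hairpin 7 call was lost without hairpin 7 replicate 1 or D458 control replicate 3.

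Of 16 interferon and cap-sensing genes, 6 passed the filter. In D458, 1 rose and 0 fell with hairpin 8 (12.1% of all genes rose and 11.1% fell), and 1 rose and 0 fell with hairpin 7 (11.5% and 11.1%). In D425, 1 rose and 0 fell with hairpin 8 (11.6% and 10.1% of all genes), and 0 rose and 0 fell with hairpin 6 (7.31% and 6.84%). These counts lie near the shares of all genes. Named after their values were seen, these were IFIH1, a double-stranded RNA sensor, with hairpin 8 in D458 (3.08, adjusted p = 0.0484, at an average of 0.3 CPM), IRF9, a factor of the interferon response, with hairpin 7 in D458 (0.64, 0.0414) and DDX58, which encodes RIG-I, with hairpin 8 in D425 (1.30, 0.0364). IFIT1 had 60 counts over all 18 libraries and was not tested. EIF4A1, a translation factor that dividing cells use, was listed at 0 in all 18 libraries. Whether that 0 reflects the mRNA or the assignment of reads to genes was not tested.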
